A study of Mus musculus with 5 samples.

Results

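The protein tyrosine phosphatases take phosphate off tyrosine residues and so work against tyrosine kinases. The genes of the classical family were chosen by symbol, as the protein-coding genes of the mouse RefSeq table named Ptpn followed by a number or Ptpr followed by a letter, and 37 of 21887 protein-coding genes had such a symbol. They fall into 20 receptor genes (Ptpr), which encode proteins with an extracellular part and a membrane span, and 17 non-receptor genes (Ptpn), which encode intracellular enzymes. No peak value entered the choice by symbol, but the family was proposed with the peak lists already known, among them a peak near Ptpn22 in all 4 lists. All counts and shares of the family are therefore descriptions of these libraries and carry no test.

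The data are peak lists from chromatin immunoprecipitation and sequencing (ChIP-seq) of BRG1 in primary mouse bone marrow-derived macrophages. BRG1 is the ATPase motor of the SWI/SNF complexes, which slide or evict nucleosomes, and BAF60a is an accessory subunit of those complexes. The 4 groups were untreated wild-type cells (WT), untreated Baf60a knockout cells (KO), wild-type cells given oxidised low-density lipoprotein (oxLDL WT) and Baf60a knockout cells given the same lipoprotein (oxLDL KO), with 1 library each. An input library was also made and was not analysed here. The sources used here do not state how or in which cells the Baf60a gene was deleted, the age and sex of the mice, or the dose and duration of oxLDL. With 1 library per group no difference between groups has a replicate check, and intervals on shares are 95% Wilson intervals that cover counting error only.

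Receptor phosphatases sense neighbouring cells or matrix, and the best known in leukocytes is CD45 (Ptprc), which keeps Src family kinases ready to signal. Non-receptor phosphatases are brought to their targets by SH2, FERM, PDZ or proline-rich domains. In macrophages SHP-1 (Ptpn6) and SHP-2 (Ptpn11) bind the phosphorylated tails of inhibitory receptors and growth factor adaptors, PTP1B (Ptpn1) and TC-PTP (Ptpn2) act on cytokine receptors and Janus kinases, and the PEST group (Ptpn12, Ptpn18 and Ptpn22) works beside the kinase Csk and the cytoskeletal adaptors.

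BRG1 peaks of 7 members reached into the 250 bases before a listed transcription start. Those bases are shown for 4 of them, Ptpn22 and Ptprj as the members with peaks in the most lists and Ptpn4 and Ptpn1 as examples of genes whose window lay nearly or fully under a peak. All 4 runs are from the RefSeq promoter table of GRCm38.p6, the assembly of mm10, and read 5′ to 3′ on the gene's strand up to the base before the start. The Ptpn22 run is chr3:103859545-103859794 on the plus strand, and its first 109 bases lay under the oxLDL WT peak. The Ptprj run is chr2:90580596-90580845 on the minus strand, with 233 bases under the oxLDL WT peak and 246 under the oxLDL KO peak. The Ptpn4 run is chr1:119837072-119837321 on the minus strand, with 240 and 221 bases under those 2 peaks. The Ptpn1 run is chr2:167932077-167932326 on the plus strand and lay whole, 250 bases, under the oxLDL WT peak. A window of Ptpn7, which is not shown, lay whole under a peak in both oxLDL lists. Capitals mark every match, on either strand, to one of 9 short motifs named further down.
Ptpn22: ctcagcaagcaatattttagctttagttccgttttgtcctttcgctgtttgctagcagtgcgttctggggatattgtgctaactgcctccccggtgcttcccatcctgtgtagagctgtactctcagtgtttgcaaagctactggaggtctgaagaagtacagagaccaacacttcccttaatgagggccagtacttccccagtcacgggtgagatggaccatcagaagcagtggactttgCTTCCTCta
Ptprj: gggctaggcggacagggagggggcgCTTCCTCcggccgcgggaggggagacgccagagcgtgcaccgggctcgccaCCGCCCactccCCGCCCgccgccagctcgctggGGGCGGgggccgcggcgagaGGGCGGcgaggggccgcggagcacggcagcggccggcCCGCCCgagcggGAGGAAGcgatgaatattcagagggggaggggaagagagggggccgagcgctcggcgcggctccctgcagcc
Ptpn4: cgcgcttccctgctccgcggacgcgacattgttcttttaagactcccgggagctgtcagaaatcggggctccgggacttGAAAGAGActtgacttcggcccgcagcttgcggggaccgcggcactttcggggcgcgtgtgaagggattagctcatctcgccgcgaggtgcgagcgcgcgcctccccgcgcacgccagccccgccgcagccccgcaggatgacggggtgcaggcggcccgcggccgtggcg
Ptpn1: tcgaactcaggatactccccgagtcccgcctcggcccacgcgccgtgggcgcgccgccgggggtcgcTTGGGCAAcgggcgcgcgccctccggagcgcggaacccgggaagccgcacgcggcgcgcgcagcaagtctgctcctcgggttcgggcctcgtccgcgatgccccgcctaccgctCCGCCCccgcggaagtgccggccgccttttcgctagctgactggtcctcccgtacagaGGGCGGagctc
The Ptprj run holds 5 GC boxes (GGGCGG) and 2 PU.1 words (GAGGAAG), the Ptpn22 run a single PU.1 word read on the opposite strand, the Ptpn4 run 1 IRF word (GAAANNGA) and the Ptpn1 run 2 GC boxes and 1 C/EBP word (TTGCNNAA).

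The 4 lists differ in length, which bears on every count of members. The oxLDL lists were the long ones, with 9907 peaks (oxLDL WT) and 4668 peaks (oxLDL KO), against 237 in WT and 139 in KO. Each peak carries the authors' fold enrichment, the pileup of fragments at its summit over the local background with 1 added to both, and the pileup was solved from the fold and the p-value. The lowest background of a list, a measure that grows with the number and length of fragments, was 3.76 in oxLDL WT, 3.42 in oxLDL KO, 2.70 in WT and 3.84 in KO. Peaks on a background over 5 times that level numbered between 48 and 83 per list, and 0 of them lay near a family member. Markers set the cell label beside the data, counted by peaks within 20 kb. All 10 macrophage genes had a peak in oxLDL WT, 9 of them also in oxLDL KO, against 1 and 2 of 6 T and B cell genes. The counts were 1 and 1 of 6 neutrophil genes and 1 and 0 of 5 fibroblast genes, beside 33.2% and 21.1% of all genes. The T and B cell share in oxLDL KO (33.3%) thus lay above that of all genes. Median lengths of the marker sets also differed: 18.3 kb (macrophage), 6.22 kb (T and B cell), 2.64 kb (neutrophil) and 35.9 kb (fibroblast). A peak list from a culture cannot tell binding in more cells from more binding per cell.

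In oxLDL WT, 19 of the 37 phosphatase genes had a BRG1 peak with its summit in the gene body or within 20 kb of it, and in oxLDL KO 13 had one. All 13 were among the 19. The share was 51.4% in oxLDL WT (95% Wilson interval 35.9 to 66.6%) beside 33.2% of all genes, and 35.1% in oxLDL KO (21.8 to 51.2%) beside 21.1% of all genes. Peaks in both lists were held by 13 members, beside 17.5% of all genes. In the short untreated lists 2 members, Ptpn22 and Ptprj, had a peak in WT and 1 member, Ptpn22, had one in KO, beside 1.19% and 0.553% of all genes. Members are longer than most genes, with a median length of 104 kb against 17.2 kb, so shares of genes and peaks per length are both given. Per Mb searched the family held 4.83 peaks in oxLDL WT and 2.08 in oxLDL KO, below the 6.46 and 3.04 computed for all genes. The all-gene values divide peaks of all chromosomes by the span of the autosomes alone, so they are upper bounds. The share of genes was above the background and the density per Mb below the all-gene value so computed. Since the family was proposed with these lists known, nothing further is read from either.

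**Figure D1:**
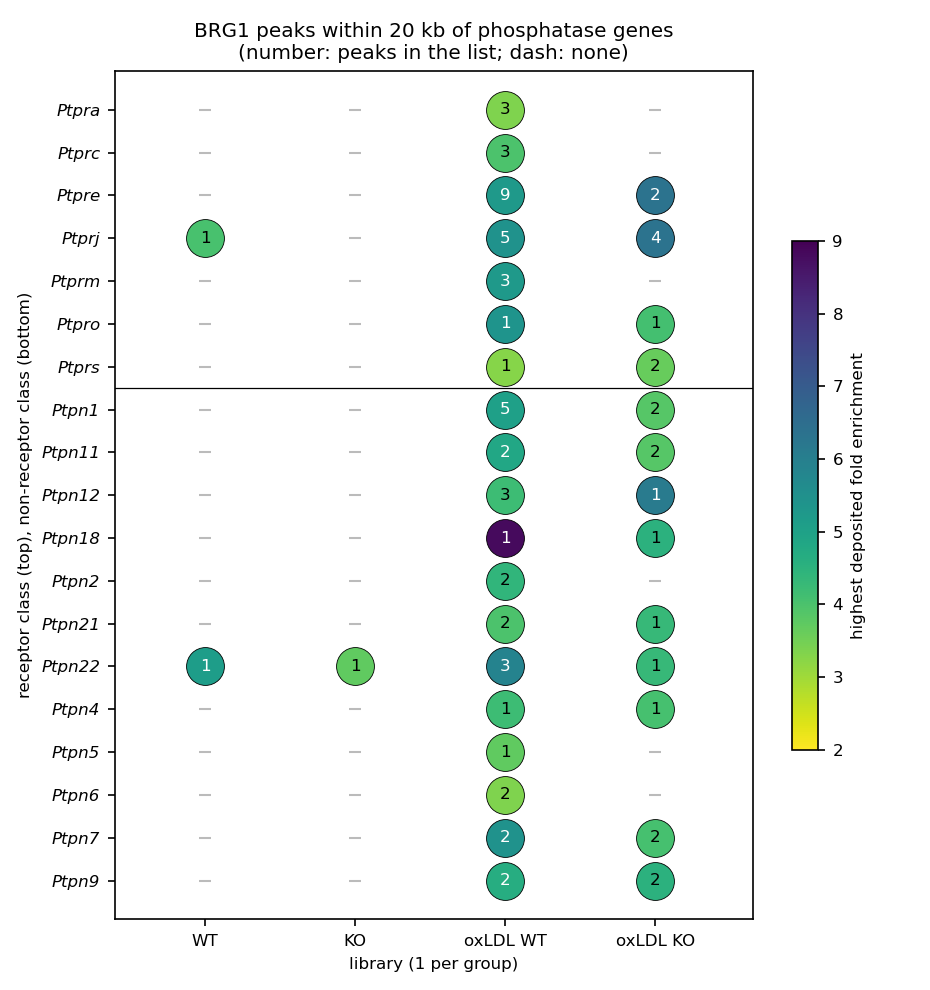
BRG1 peaks near the 19 phosphatase genes with at least 1 peak, by library (1 per group), with the receptor class above the line and the non-receptor class below it. Each circle gives the number of peaks in the gene body or within 20 kb, its colour gives the highest deposited fold enrichment, and a dash marks no peak. Ptpn22 alone has a circle in all 4 columns, Ptpre has the most peaks (9 in oxLDL WT), and Ptpn18 the highest value (8.82).

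The region that all 4 lists share lies at Ptpn22, which encodes the phosphatase LYP (PEP in mice), a brake on antigen receptor signalling that also acts in myeloid cells. Of all genes, 0.105% (23 genes) had a peak within 20 kb in all 4 lists. The Ptpn22 summit had a fold enrichment of 5.88 in oxLDL WT (pileup 27), 5.13 in WT (pileup 18), 4.30 in oxLDL KO (pileup 18) and 3.72 in KO (pileup 17). Both wild-type libraries thus had the higher values and both knockout libraries the lower ones, while the recovered pileups of WT, KO and oxLDL KO lay within 1 fragment of each other on backgrounds of 2.70, 3.84 and 3.42. The peak stood at the 90.3rd percentile of its list by fold enrichment in WT, the 96.8th in oxLDL WT, the 57.9th in KO and the 72.5th in oxLDL KO. The oxLDL WT peak was also the widest, 1472 bp against 336 bp in WT, 268 bp in KO and 291 bp in oxLDL KO.

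The 4 Ptpn22 summits fell within 41 bp of each other, between 365 and 406 bp before the first listed start on chromosome 3 (position 103859795). The RefSeq gene span used for the counts begins before that start. By that span all 4 summits lay inside the gene, 2814 to 2855 bp from its nearer end. The nearest other protein-coding gene, Bcl2l15, was 4771 bp or more from each summit. Across the genome 11824 merged peak regions were formed from the 4 lists and 41 of them held a peak of every list. Only 6 of the 41 had no high-background peak, and their nearest genes were Apbb2, Fnip1, Junb, Nrp2, Ptpn22 and Tmco5. The region before the first listed start of Ptpn22 was therefore 1 of 6 of its kind in these lists. In oxLDL WT the gene had a second peak inside its body, 16504 bp from the nearer end (fold enrichment 3.04), and the last summit counted for it lay in the body of the neighbouring gene Rsbn1 (3.39).

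Ptprj encodes CD148, a receptor phosphatase with a fibronectin-repeat ectodomain that shares with CD45 the task of activating Src family kinases in macrophages. Its start region, chr2:90579423-90580841, was the only family region found in exactly 3 lists. The strongest summit there had a fold enrichment of 4.05 in WT (pileup 14), 5.46 in oxLDL WT (pileup 25) and 6.34 in oxLDL KO (pileup 27). Untreated KO had no peak near the gene. The region also held a weaker oxLDL KO peak of 3.62, with its summit 1005 bp after the start. Unlike at Ptpn22, the oxLDL KO value was the highest. The strongest summits lay 288, 162 and 283 bp after the listed start at 90580595. A second protein-coding gene, Gm46752, lay 94 to 220 bp from those summits, so the peak is close to both genes. A second region 2725 bp after the start had a peak in both oxLDL lists (4.20 and 4.75). In all the gene had 5 oxLDL WT peaks and 4 oxLDL KO peaks, the latter the most of any member in that list.

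**Figure D2:**
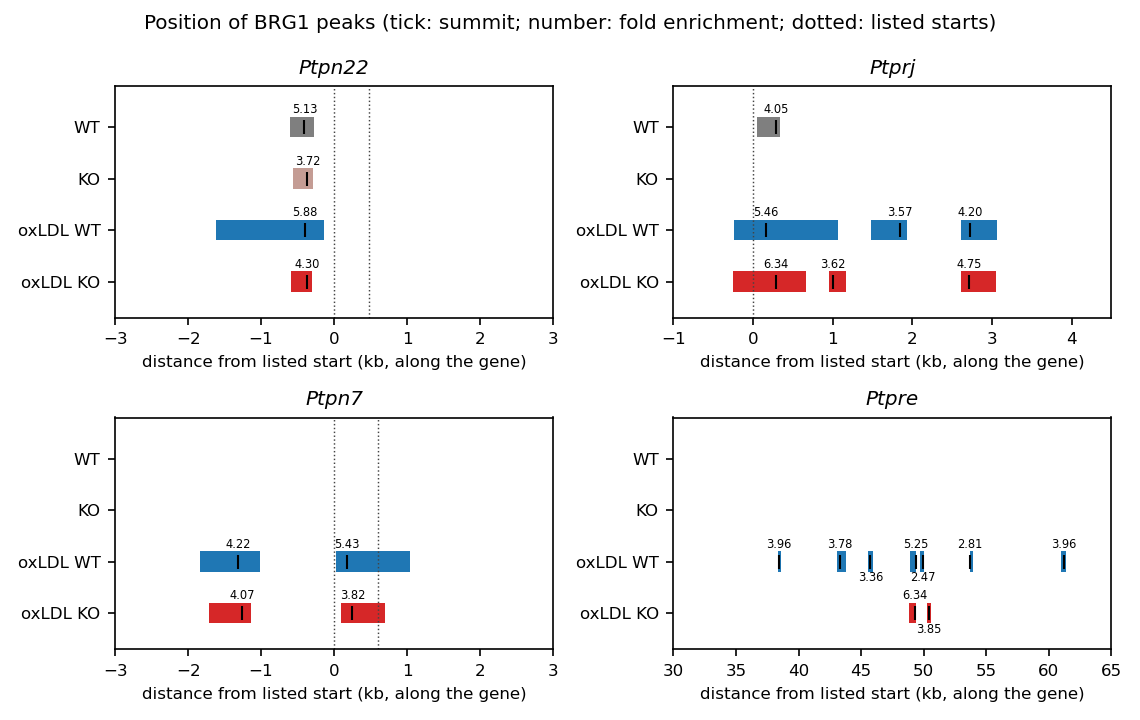
BRG1 peaks around 4 phosphatase genes, by library, against the distance in kb from a listed start along the gene. Bars span the deposited peaks, ticks mark summits, numbers give the deposited fold enrichment and dotted lines are listed starts, with each panel showing a part of the gene. The Ptpn22 summits line up in all 4 libraries, while Ptprj has peaks in 3 libraries and Ptpn7 and Ptpre in the 2 oxLDL libraries.

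Among the other receptor genes, Ptpre had 9 peaks in oxLDL WT, more than any other member. It encodes a phosphatase with a membrane form and a cytosolic form made from different promoters, the latter known in blood cells. At least 9 peaks were found near 53 genes, or 0.242% of all genes. Of the 9 peaks 1 was matched in oxLDL KO, with fold enrichments of 5.25 (oxLDL WT) and 6.34 (oxLDL KO) and summits 49351 and 49339 bp after the last of the 3 listed starts. The other 8 had values between 2.47 and 3.96, so the matched peak was the strongest of the gene in both lists. The outermost, in the body of Mki67, lay 19296 bp from Ptpre and was the member peak closest to the 20 kb limit.

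Ptpro, known from kidney podocytes and, in a shorter form, from osteoclasts and macrophages, had a single peak in each oxLDL list, with fold enrichments of 5.37 and 4.10. The 2 summits were 9 bp apart, 158048 and 158039 bp after the only listed start and well inside the gene. Ptprs encodes a receptor for proteoglycans. It had a peak in oxLDL WT 465 bp after a start (3.26) that overlapped one in oxLDL KO 801 bp after it (3.62), and a further oxLDL KO peak of 2.97. These Ptprs values were in the lower part of both lists, at the 23.5th, 37.6th and 8.08th percentiles.

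Ptprc, Ptpra and Ptprm had peaks in oxLDL WT and none in the other lists. At Ptprc, the gene of CD45, the 3 peaks had fold enrichments of 3.99, 3.36 and 3.78, and the second lay 31 bp after a listed start. At Ptpra, which encodes a broadly expressed activator of Src, they were 3.36, 3.26 and 2.94. Ptprm, a homophilic adhesion receptor, had peaks of 5.25, 3.57 and 3.15 in a stretch 643428 to 648247 bp from its start. The Ptprm peak of 5.25 was the strongest family peak without a counterpart in oxLDL KO. No peak in any list was found within 20 kb of the other 13 receptor genes: Ptprb, Ptprd, Ptprf, Ptprg, Ptprh, Ptprk, Ptprn, Ptprn2, Ptprq, Ptprr, Ptprt, Ptpru and Ptprz1. Many of these are known from neurons, endocrine cells, epithelia or endothelium.

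Of the non-receptor genes the PEST group had a peak at all 3 genes in both oxLDL lists (95% Wilson interval 43.9 to 100%), beside 17.5% of all genes. Ptpn18, whose product binds the PSTPIP adaptors and Csk, had the strongest family peak, with a fold enrichment of 8.82 (pileup 41, 99.9th percentile) in oxLDL WT and 4.53 (pileup 19, 80.1st percentile) in oxLDL KO. Its summits lay 859 and 932 bp from the gene's far end, 13179 and 13106 bp after the start, and the nearest other gene, Prss39, was 25487 bp away or more. Ptpn12 encodes PTP-PEST, which acts on the adaptor p130Cas. It ran the other way, with 3.36 in oxLDL WT and 6.11 (pileup 26, 98.2nd percentile) in oxLDL KO for 2 overlapping peaks whose summits were 458 bp apart. The oxLDL KO summit was 86 bp from an end of the gene. Ptpn12 also had oxLDL WT peaks of 4.20 and 2.84 without a counterpart. Members of 1 group thus differed in which oxLDL library held the higher value.

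Ptpn1 and Ptpn2 encode the close relatives PTP1B and TC-PTP. Ptpn1 had 5 oxLDL WT peaks and 2 oxLDL KO peaks, and both of the latter were matched. Near the start the fold enrichments were 3.55 (oxLDL WT) and 3.60 (oxLDL KO), and further inside, 27079 and 27135 bp after the start, they were 5.04 and 3.85. The unmatched peaks of Ptpn1 reached 4.78, at 6257 bp before the start. Ptpn2 had 2 peaks in oxLDL WT (4.41 and 4.03) and none in the other lists.

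The SH2-domain phosphatases differed in where their peaks lay. Ptpn11 (SHP-2) had a matched peak beyond its far end, 7559 bp away in oxLDL WT (4.83) and 7455 bp away in oxLDL KO (3.85). A peak 195 bp after its start was found in oxLDL KO alone (3.62). Ptpn6 (SHP-1) had 2 oxLDL WT peaks of 3.36 and 3.15, and both summits lay in the bodies of other genes, Grcc10 and Atn1. When a peak counted only for its nearest gene, Ptpn6 was the 1 member lost from the oxLDL WT count, and Ptpn21 the 1 member lost from the oxLDL KO count.

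Ptpn7 and Ptpn5 belong to the phosphatases that bind MAP kinases. Ptpn7 (HePTP), known from blood cells, had 2 peaks in each oxLDL list and all were matched. The fold enrichments were 4.22 and 4.07 upstream, at 1320 and 1262 bp before the first start, and 5.43 and 3.82 at 171 and 251 bp after it. The upstream summits lie inside Ptprv, a transcribed pseudogene that is not a family member here (chr1:135108498-135132575). Ptpn5 (STEP), known from striatal neurons, had 1 oxLDL WT peak of 3.72 inside the gene, 51441 bp from a start.

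Ptpn4, Ptpn9 and Ptpn21 carry FERM, PDZ or SEC14 domains that bring them to membranes. At the start of Ptpn4 the fold enrichments were 4.20 (oxLDL WT) and 4.07 (oxLDL KO), with summits 147 bp before and 5 bp after the start. At Ptpn9 they were 4.64 and 4.53, at 507 and 436 bp after the start. At Ptpn21 an oxLDL WT peak of 3.45 lay 181 bp before a start, and the matched pair (3.99 and 4.30) lay in the body of Zc3h14. Ptpn3, Ptpn13, Ptpn14, Ptpn20 and Ptpn23 had no peak within 20 kb in any list.

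Comparing the classes, 12 of 17 non-receptor genes had an oxLDL WT peak (70.6%, 95% Wilson interval 46.9 to 86.7%) and 7 of 20 receptor genes did (35.0%, 18.1 to 56.7%). In oxLDL KO the numbers were 9 of 17 (52.9%, 31.0 to 73.8%) and 4 of 20 (interval 8.07 to 41.6%). Over all genes the shares were 33.2% and 21.1%, close to those of the receptor class. The intervals of the 2 classes overlapped in both lists. Non-receptor and receptor genes had 26 and 25 peaks in oxLDL WT and 13 and 9 in oxLDL KO, but the receptor genes spread them over 8.63 Mb of searched sequence and the non-receptor genes over 1.93 Mb. That gave 13.4 (oxLDL WT) and 6.72 (oxLDL KO) peaks per Mb for the non-receptor class, and 2.90 and 1.04 per Mb for the receptor class. The all-gene values, upper bounds as said above, were 6.46 and 3.04 per Mb.

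Gene length moved with class, with a median of 164 kb for receptor and 59.1 kb for non-receptor genes. Under 100 kb, 11 of 13 non-receptor genes and 1 of 5 receptor genes had an oxLDL WT peak. At 100 kb or more it was 1 of 4 non-receptor genes and 6 of 15 receptor genes. Of all genes, 32.2% under 100 kb and 41.0% of the longer ones had such a peak. The class difference was thus seen among the shorter genes and not among the longer ones, and the counts are small in both. Under 100 kb the 95% Wilson intervals were 57.8 to 95.7% (non-receptor) and 3.62 to 62.4% (receptor), which overlap. The 19 members with an oxLDL WT peak add up to 2.19 Mb and the 18 without to 6.94 Mb, with median lengths of 64.1 and 161 kb. In this family the genes without a peak were on balance the longer ones.

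**Figure D3:**
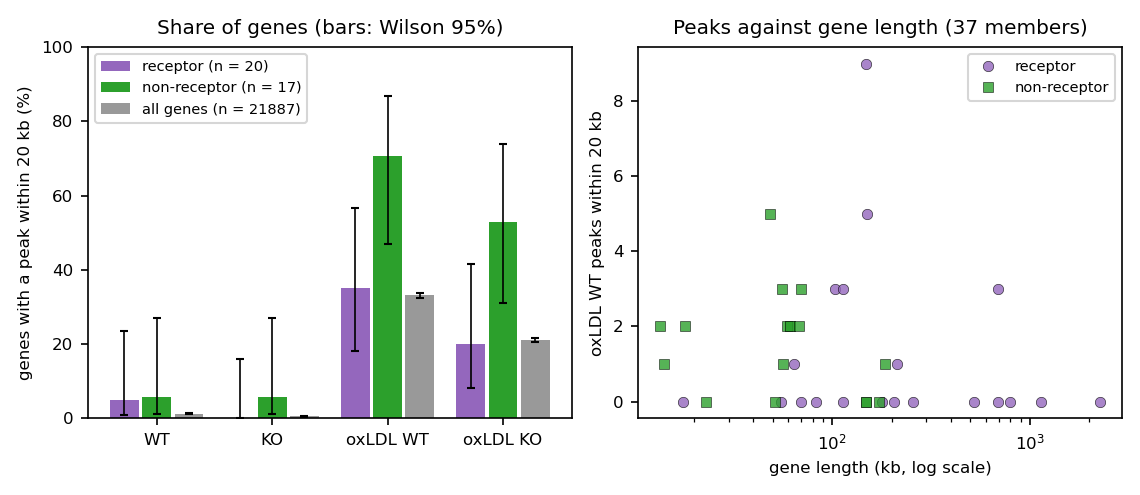
Left, the percentage of receptor (n = 20), non-receptor (n = 17) and all genes (n = 21887) with a BRG1 peak within 20 kb in each library, with 95% Wilson intervals as bars. Right, the number of oxLDL WT peaks of each of the 37 members against gene length in kb on a log scale: the longest receptor genes have no peak apart from Ptprm with 3.

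The genes were also split by where they are known to act, with lists drawn up with earlier results of these data known. The 12 phosphatases listed for leukocytes, not all of them particular to those cells, all had an oxLDL WT peak. In oxLDL KO 9 had one (75.0%, interval 46.8 to 91.1%), beside 33.2% and 21.1% of all genes in the 2 lists. Ptprc, Ptpn2 and Ptpn6 were the 3 with none in oxLDL KO. Ptpn6 was counted in oxLDL WT only through summits in the bodies of Grcc10 and Atn1. Of 12 phosphatases listed for neurons, epithelia or endothelium 1 had an oxLDL WT peak (Ptpn5) and 0 had one in oxLDL KO (Wilson upper bound 24.2%). These 2 lists hold 24 of the 37 members. Of the 13 in neither list, Ptpra, Ptprm, Ptprs, Ptpn4, Ptpn9 and Ptpn21 had an oxLDL WT peak. Ptprs, Ptpn4, Ptpn9 and Ptpn21 also had one in oxLDL KO. The adhesion receptor gene Ptprm and the proteoglycan receptor gene Ptprs could have been listed for neurons, epithelia or endothelium, and both go against the contrast. The contrast therefore holds for the listed genes and depends on how they were picked. The 2 lists differed in length as well, with median genes of 60.0 and 146 kb, and in density, with 26.3 and 0.176 oxLDL WT peaks per Mb. By subfamily, every gene of the R1/R6 (Ptprc), R4 (Ptpra, Ptpre), NT1 (Ptpn1, Ptpn2), NT2 (Ptpn6, Ptpn11), NT3 (Ptpn9), PEST and MAP kinase-binding (Ptpn5, Ptpn7) groups had an oxLDL WT peak. No gene of the receptor groups R5 (Ptprg, Ptprz1), R7 (Ptprr) and R8 (Ptprn, Ptprn2) or of the non-receptor groups NT7 (Ptpn23), NT8 (Ptpn20) and NT9 (Ptpn13) had one, and the other groups were mixed.

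Peaks in the family were matched between lists where they shared at least 1 bp. Of 51 oxLDL WT peaks 16 had a counterpart in oxLDL KO (31.4%, 20.3 to 45.0%), beside 27.3% of all oxLDL WT peaks. Of 22 oxLDL KO peaks 17 had one in oxLDL WT (77.3%, 56.6 to 89.9%), beside 59.6% of all oxLDL KO peaks. The 2 shares have different denominators, since the oxLDL WT list is the longer. Non-receptor peaks were matched in 11 of 26 and 11 of 13 cases and receptor peaks in 5 of 25 and 6 of 9, with overlapping intervals in both directions.

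The matched peaks were the stronger ones in their own list. In oxLDL WT the 16 matched family peaks had a median fold enrichment of 4.73, a median percentile of 87.7 and a median width of 674 bp, against 3.57, 42.7 and 302 bp for the 35 others. In oxLDL KO the 17 matched peaks had a median of 4.10, a percentile of 67.0 and a width of 425 bp, against 3.62, 37.6 and 239 bp for the 5 others. Wider peaks have more bases that can overlap, and the part of width in the match was not tested. The same medians were not taken over all peaks, so the contrast is not shown to be particular to the family. Merged over all lists the family had 56 regions, of which 40 were in 1 list, 14 in 2, 1 in 3 and 1 in 4. Over the genome 41 of 11824 merged regions were in all 4 lists, and the other counts were not taken there.

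**Figure D4:**
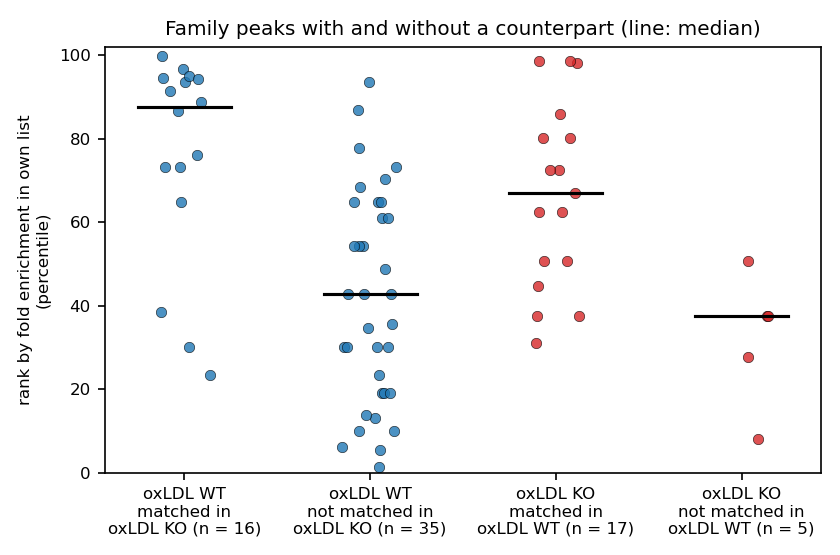
Family peaks of the oxLDL lists by percentile of fold enrichment within their own list, split by whether a peak of the other oxLDL list shares at least 1 bp. Each point is 1 peak and lines are medians, which are 87.7 for matched and 42.7 for unmatched oxLDL WT peaks, and 67.0 and 37.6 for oxLDL KO peaks.

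The family peaks had values near those of all peaks. Their median fold enrichments were 3.78 (oxLDL WT) and 3.96 (oxLDL KO), beside 3.75 and 3.85 over all peaks of those lists, and they ranged from 2.47 to 8.82 and from 2.97 to 6.34. At a deposited −log10 q of at least 5 stood 25.5% of family peaks and 25.4% of all peaks in oxLDL WT, and 18.2% and 19.8% in oxLDL KO. Several members held more than 1 peak: 14 members had 2 or more oxLDL WT peaks (37.8%, beside 15.8% of all genes) and 3 had 5 or more (Ptpre, Ptprj and Ptpn1, 8.11%, beside 2.39%). Gene length was not taken into account in these shares.

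The promoter table held starts for 32 members, all but Ptpn2, Ptpn12, Ptprb, Ptprd and Ptprq. A summit within 1 kb of a start was found for Ptpn22 and Ptprj in WT, for Ptpn22 in KO, for 10 members in oxLDL WT and for 8 in oxLDL KO. Ptpn1, Ptpn4, Ptpn7, Ptpn9, Ptpn22, Ptprj and Ptprs had one in both oxLDL lists. The share of all genes with such a summit was not taken, so nothing is read from these counts of members. Counted by peaks, such summits made up 21.7% of the 46 family peaks with a start in oxLDL WT (12.3 to 35.6%). In oxLDL KO they made up 38.1% of 21 (20.8 to 59.1%). Over the pairs of peak and gene of all genes the shares were 27.3% and 33.6%. The median distance from a start was 17494 bp for family peaks of oxLDL WT, beside 9299 bp over all genes, and 2715 bp for those of oxLDL KO, beside 7792 bp, so the 2 lists stood on opposite sides of the background.

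Peaks reached into the 250 bases before a start at 7 of the 32 members in oxLDL WT (21.9%, 11.0 to 38.8%), beside 5.43% of 17492 genes, and at 3 in oxLDL KO (9.38%, 3.24 to 24.2%), beside 2.21%. The members were Ptpn1, Ptpn4, Ptpn7, Ptpn21, Ptpn22, Ptprc and Ptprj in oxLDL WT, and Ptpn4, Ptpn7 and Ptprj in oxLDL KO. At Ptpn22 the WT, KO and oxLDL KO peaks stopped short of the printed run, which only the wider oxLDL WT peak entered. The 7 windows had a median GC content of 70.0% (36.8 to 81.2%) and 34 CpG dinucleotides, against 63.4% and 15 for all 46 windows of the family and 55.6% and 10 for 21263 windows of all genes. The other printed runs are GC-rich and CpG-rich, with 79.2% and 34 CpGs at Ptprj, 75.2% and 41 at Ptpn1 and 70.0% and 36 at Ptpn4. The Ptpn22 run had 49.2% and 5 CpGs.

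The 9 motifs were searched on both strands. Among all windows the PU.1 word GAGGAAG was present in 10.3%, the AP-1 word TGANTCA in 6.13%, the C/EBP word TTGCNNAA in 9.09%, the IRF word GAAANNGA in 17.4%, the RUNX word TGTGGT in 12.4%, the ETS word CCGGAAG in 8.98%, the GC box GGGCGG in 42.6%, the NRF1 word GCATGCG in 3.73% and the E-box CACGTG in 6.63%. In the family 8 of 46 windows held the PU.1 word (17.4%), 24 the GC box (52.2%) and 6 the RUNX word (13.0%). The IRF word was in 5 (10.9%), the ETS word in 3, and the AP-1 and C/EBP words in 2 each. The NRF1 word and the E-box were in 1 each. The family shares thus lay above those of all windows for the PU.1 word, the GC box and the RUNX word. They lay below for all the other motifs. Of the 7 windows entered by an oxLDL peak, 4 held a GC box and 2, those of Ptpn22 and Ptprj, the PU.1 word. At Ptpn22 the word lies 9 to 3 bp before the start, outside the peak, and at Ptprj at 225 to 219 and 72 to 66 bp before it. A match is a run of letters and not a bound site.

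The partners of the phosphatases were followed with the same 20 kb rule, in lists drawn up with earlier results of these data known. Of 20 genes listed as inhibitory receptors for SHP-1 or SHP-2, 16 had an oxLDL WT peak (80.0%) and 11 an oxLDL KO peak (55.0%). The shares of all genes were 33.2% and 21.1%. The list is a loose one, and not all of its members, Siglec1 for example, are known to recruit these phosphatases. Genes that lie close together can be counted through the same peak, and peaks were not limited to their nearest gene here. Lilrb4a and Lilr4b, for example, each had 1 oxLDL WT peak, with the same fold enrichment of 2.94. The strongest with both were Clec4a2, an inhibitory C-type lectin (6.30 with oxLDL WT and 6.34 with oxLDL KO), the collagen receptor gene Lair1 (6.09 and 3.62) and Sirpa, whose product binds the self signal CD47 (5.67 and 4.55). Cd300lf (6.29) and Cd5 (4.38) led those in oxLDL WT alone, and Pirb (4.07) was in oxLDL KO alone. Siglece, Ceacam1 and Cd22 had none.

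Of 13 adaptor genes of SHP-2 and related docking proteins 9 had an oxLDL WT peak (69.2%) and 7 an oxLDL KO peak (53.8%), beside 33.2% and 21.1% of all genes. Grb2, the adaptor that links receptors to Ras, had 4.62 and 4.30 and also a WT peak of 4.23, Dok3 had 4.38 and 4.57, and the insulin receptor substrate gene Irs2 had 4.03 and 4.07. Gab2 (4.53) and Dok1 (3.99) had a peak in oxLDL WT alone and Frs2 (3.61) in oxLDL KO alone. All 10 partner genes of the PEST phosphatases and CD45 had an oxLDL WT peak and 7 an oxLDL KO peak, beside the same background.

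Among those partners Wipf1, which encodes the WASP-binding protein WIP, had fold enrichments of 6.72 and 6.11, and Pxn, the paxillin gene, 6.48 and 5.03 with 4.40 in WT. Pstpip1, the adaptor that brings PTP-PEST to the actin cytoskeleton, had 5.46 and 5.20 with 3.79 in KO, and 9 and 6 peaks in the oxLDL lists. Lpxn (4.41) and Bcar1 (4.20) had peaks in oxLDL WT alone. The PEST enzymes and this mixed list of PEST and CD45 partners each held genes with peaks in both oxLDL lists, beside 17.5% of all genes. Of 20 other phosphatase and phosphatase-related genes outside the classical family, 10 had an oxLDL WT peak (interval 29.9 to 70.1%). An oxLDL KO peak was found at 8 (21.9 to 61.3%), beside 33.2% and 21.1% of all genes. They were led by Ptp4a2 (6.72 and 3.40), Mtmr3 (4.83 and 4.30) and Sbf2 (4.10 and 4.07). Cdc25b (6.09) and Mtmr2 (4.08) had a peak in oxLDL WT alone, and Ptp4a1 (3.07) in oxLDL KO alone.

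Just outside the 20 kb limit, 4 oxLDL WT summits lay 22.0 to 26.9 kb from Ptpn5 and 1 oxLDL KO summit 27.0 kb from it, nearest to Tmem86a. An oxLDL WT summit (3.57) lay 23.3 kb from Ptprq, nearest to Otogl. Near Ptprn, 28.5 and 28.4 kb away, there were summits of 5.01 in oxLDL WT and 3.39 in oxLDL KO, nearest to Tuba4a. A wider limit would thus have added Ptprq and Ptprn to the oxLDL WT count, each through a peak that lies closer to another gene.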

How the data were processed

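BRG1 ChIP-seq of 4 groups of bone marrow-derived macrophages was used as deposited peak lists, each called on its own library without pooling. Per the labels' protocols, the enzymatic SimpleChIP kit and an Abcam antibody against BRG1 were used, then NEBNext Ultra II FS libraries and paired-end NovaSeq sequencing. Nuclease cutting sets where fragments end, which can shift summits. Per the submitters' processing notes, bcl2fastq 2.17, Trimmomatic 0.33, Bowtie2, MACS3 and mm10 were used. The sources used here give no parameters and do not say whether the input served as control. Groups came from the sample titles. Nothing in the labels says that libraries came from separate animals.

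The deposited columns are a score, a fold enrichment (a ratio of pileup to local background at the summit), the authors' −log10 p and −log10 q values, and the summit offset from the peak start. The authors' lowest −log10 q was between 1.01 and 1.07 in the 4 lists. No read totals were used here, so depth per library is unknown apart from the lowest recovered background. Pileup and background were solved from fold enrichment and p with a pseudocount of 1, and the pileup came out whole, within 2% of a step, for 97.9% of peaks in WT, 93.5% in KO and 99.9% in each oxLDL list, and for all family peaks. The code was tested on simulated data.

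Gene bodies came from the RefSeq gene table of GRCm38.p6, which does not separate exons from introns, and starts, strands and upstream windows from the RefSeq promoter table of the same assembly. A peak was matched where it shared at least 1 bp with a peak of the other list. Members with a peak in all 4 lists, in an untreated list or in both oxLDL lists are described by name, as are up to 5 with the highest fold enrichment in a single oxLDL list. For partner lists at most 3 genes found in both oxLDL lists and 2 found in each single list are named by fold enrichment. Further members and genes were named after their values were seen. The members and lists were chosen with earlier results of these data known. With 1 library per group there was no test. Shares carry 95% Wilson intervals. Alternatives changed the window, the peak threshold, the treatment of high-background peaks, the gene a peak counts for and the overlap that counts as matched. Python 3.11.15, numpy 2.4.6, pandas 2.3.3 and scipy 1.17.1 were used.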

Additional observations from a re-analysis of the deposited data

How the results depend on the processing

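Of 88 alternative values, 75 stayed within 1.5 times the main count or within the interval of the main share. The 75 are not all separate checks. The 12 without high-background peaks could not move, because 0 family peaks were of that kind. The 12 at the same −log10 p minimum in all lists were equal to the 12 at a −log10 q of at least 2. All 12 at a deposited −log10 q of at least 5 moved beyond the limits, and this threshold leaves fewer peaks by construction. At that threshold members with a peak numbered 11 in oxLDL WT, 3 in oxLDL KO and 0 in both WT and KO, beside 12.4% and 5.12% of all genes in the oxLDL lists. The 3 were Ptpn12, Ptpre and Ptprj. Of the 4 Ptpn22 peaks the one in oxLDL WT passed. The Ptpn22 peak in WT had a deposited value just under 5, so the count of 0 in WT rests on that margin. Receptor members numbered 4 and 2 in oxLDL WT and oxLDL KO, non-receptor members 7 and 1, and family peaks 13 and 4. The matched share was 15.4% (2 of 13) of oxLDL WT and 50% (2 of 4) of oxLDL KO family peaks. Requiring an overlap of 50% of both peaks lowered the matched share of oxLDL KO family peaks from 77.3% to 50% (11 of 22), and the cause was not tested. Counting only peaks in gene bodies gave 17 and 12 members in the oxLDL lists, beside 19.3% and 11.9% of all genes. No paired analysis was possible because each group had 1 library, and for the same reason no replicate could be left out.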
